A study of Homo sapiens with 9 samples.

Results

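The transcripts of 8 receptor tyrosine kinases and 2 of their ligands were examined in HepG2, a human liver cancer cell line, after knockdown of the long non-coding RNA IGFRIL or of the RNA-binding protein PTBP1. The receptors were EGFR, ERBB2 and ERBB3 of the ERBB family, MET and MST1R of the hepatocyte growth factor receptor family, and AXL, EPHA2 and CSF1R, and the ligands were the neuregulins NRG1 and NRG2. These 10 genes were chosen by name, and all 10 were among the 15164 genes of the deposited table and passed the filter on low values. The cells received the control siRNA that the labels call si-NC (siCtrl), an siRNA against IGFRIL (siIGFRIL) or an siRNA against PTBP1 (siPTBP1), with 3 RNA-seq libraries in each group and 9 in all. The labels give the genotype of all groups as WT, and the knockdowns were transient transfections of 1 cell line. The study asked which genes respond to both knockdowns, with receptor tyrosine kinase signalling as one of the pathways it followed.

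Receptor tyrosine kinases are membrane proteins that bind a ligand outside the cell, pair up and phosphorylate each other inside it, which recruits adaptor proteins and switches on the RAS-ERK and PI3K-AKT pathways. ERBB receptors pair with one another: ERBB2 has no known ligand of its own, and ERBB3 has little kinase activity and signals through its partner. In the liver, MET is the receptor of hepatocyte growth factor and is known for its role in regeneration, and EGFR is abundant in hepatocytes.

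Total counts ranged from 23426747 to 27942736 per library. Values below are counts returned from the deposited log2 values and scaled for library composition by TMM (scaled counts). A gene counts as called where limma gave an adjusted p (Benjamini-Hochberg) under 0.05 with a fold change over 1.2, that is a log2 fold change beyond 0.263, and ± after a log2 fold change is its standard error. No source says whether separate cultures gave the libraries, and a p-value therefore reflects only how far these libraries spread, which may be technical. Positions are those of GRCh38. The targeted PTBP1 mRNA fell from 9828 ± 299 scaled counts in siCtrl to 2181 ± 110 in siPTBP1 (SD, n = 3) and was 10308 ± 290 in siIGFRIL. IGFRIL is not among the genes listed, so its knockdown was not analysed here. Of 20 hepatocyte markers 3 were listed (FGG, TF and CEBPA), of which 1 reached 1 CPM, a count scaled to library size, in siCtrl, and ALB and AFP, which define the labelled cell type, were not listed, so these markers go against the label. Of 6 fibroblast markers 4 were listed, of which 3 reached 1 CPM in siCtrl, and COL1A2 and DCN were not listed. The summed level was 578.1 to 605.7 CPM in siCtrl, 582.3 to 609.9 CPM in siIGFRIL and 649.1 to 656.9 CPM in siPTBP1. Most of it came from COL1A1 and COL3A1. PDGFRB (27.4 to 30.1 CPM in siCtrl and 20.6 to 23.5 CPM in siPTBP1) and the scarce LUM were lower in siPTBP1. The sum of the 3 listed hepatocyte markers was 11.5 to 13.7 CPM in siCtrl, 11.2 to 12.8 CPM in siIGFRIL and 19.4 to 22.0 CPM in siPTBP1. Of 5 endothelial markers 3 were listed (PECAM1, CDH5 and VWF), 1 of which reached 1 CPM in siCtrl, and their sum was 14.2 to 15.6 CPM in siCtrl, 10.6 to 11.8 CPM in siIGFRIL and 3.09 to 4.19 CPM in siPTBP1, nearly all of it CDH5. In siPTBP1 these sums lay outside their siCtrl ranges. In siIGFRIL the hepatocyte and fibroblast sums overlapped those of siCtrl, and the endothelial sum lay below. The part of these sums in the results was not tested.

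Upon PTBP1 knockdown 5 of the 10 genes fell and 3 rose, where 33.8% of all genes were called lower and 32.2% higher. MET and EGFR, the receptors of hepatocyte growth factor and of EGF, fell (log2 fold changes of -1.32 and -1.30), and so did the ligand NRG1 (-1.49), EPHA2 (-0.72) and the scarce ERBB3 (-0.41), whereas MST1R, CSF1R and NRG2 rose. AXL and ERBB2 were not called. Upon IGFRIL knockdown no member was called, where 0.462% of all genes were. Both comparisons use the same siCtrl libraries.

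Promoter sequences are shown for the 4 receptors with the clearest change, the 3 that fell (EGFR, MET and EPHA2) and MST1R, which rose, so that the start regions of genes that moved in opposite directions can be read side by side. They are the 250 bases before a RefSeq start site (GRCh38.p14), 5′ to 3′ on the strand of the gene. EGFR has 2 such windows, of which the first along the gene is shown. In all 4, capitals mark GGGCGG, the GC box bound by SP and KLF factors, on either strand.
EGFR promoter, chr7:55018767-55019016, plus strand: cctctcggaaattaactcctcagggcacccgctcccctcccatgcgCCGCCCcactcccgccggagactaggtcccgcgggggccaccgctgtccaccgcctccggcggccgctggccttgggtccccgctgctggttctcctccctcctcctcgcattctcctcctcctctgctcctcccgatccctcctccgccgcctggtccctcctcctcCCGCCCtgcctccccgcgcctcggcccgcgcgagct
MET promoter, chr7:116671946-116672195, plus strand: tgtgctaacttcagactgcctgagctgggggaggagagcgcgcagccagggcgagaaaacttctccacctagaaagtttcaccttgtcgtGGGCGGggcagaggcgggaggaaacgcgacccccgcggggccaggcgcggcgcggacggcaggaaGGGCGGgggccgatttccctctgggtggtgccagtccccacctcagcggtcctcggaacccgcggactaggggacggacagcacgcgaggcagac
EPHA2 promoter, chr1:16156070-16156319, minus strand: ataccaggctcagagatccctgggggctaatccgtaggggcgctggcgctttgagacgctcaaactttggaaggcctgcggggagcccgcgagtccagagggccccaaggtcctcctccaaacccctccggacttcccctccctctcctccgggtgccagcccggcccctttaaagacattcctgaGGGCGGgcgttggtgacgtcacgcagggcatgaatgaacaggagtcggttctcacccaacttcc
MST1R promoter, chr3:49903874-49904123, minus strand: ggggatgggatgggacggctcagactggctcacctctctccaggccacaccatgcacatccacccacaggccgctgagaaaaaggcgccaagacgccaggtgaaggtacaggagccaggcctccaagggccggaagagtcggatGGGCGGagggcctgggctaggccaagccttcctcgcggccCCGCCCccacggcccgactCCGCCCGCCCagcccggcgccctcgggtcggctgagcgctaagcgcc
Among 35116 promoters of this length, 42.6% hold GGGCGG. The EGFR and MET promoters hold 2 each, the EPHA2 promoter 1, and the MST1R promoter 4, of which the last 2 overlap. Neither ACGTG, the core of the hypoxia response element (18.5% of promoters), nor TGACTCA, the AP-1 site (4.2%), nor TATAAA, the TATA box (10.7%), is found on either strand of these 4 windows. The other EGFR window, chr7:55109589-55109838, holds no GGGCGG or ACGTG, 2 TGACTCA and 2 TATAAA. These letters are a description of the windows and say nothing about which factors bind there.

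PTBP1 binds pyrimidine-rich RNA, and the study names CUCUCU as its motif. The transcripts of the members were searched for CTCTCT, with overlaps counted, in the annotated main transcript of each gene, on the transcript strand only. It occurs in 62.8% of the transcripts of 12497 listed coding genes and in 41.1% of 12487 of their 3′ untranslated regions. NRG1 holds the most in its 3′ untranslated region, 6 occurrences in 9644 bases, and its sites are not printed here. Those of MET, EGFR, AXL, CSF1R and ERBB3 are shown because this is the protein that was removed, with capitals marking the motif and any run that extends it.
MET, 1796 bases after the stop codon: tataactaaaagCTCTCTgatagtgcagag
EGFR, 4314 bases after the stop codon: gaaagccctttCTCTCTCTtataaaaaggc
EGFR, 5155 bases after the stop codon: ttcctaaggtttCTCTCTttattaagggtg
EGFR, 5459 bases after the stop codon: ttccttccatgtCTCTCTgcactacctgca
AXL, 1454 bases after the stop codon: gctgcattctgcCTCTCTaggaccatggtt
CSF1R, 420 bases after the stop codon: agtgagatctccCTCTCTgagaggagcagc
ERBB3, 78 bases after the stop codon: ctccctattccCTCTCTCTcccaggtccca
Over the whole transcript the motif occurs 7 times in NRG1, 6 in EGFR, 4 in ERBB3, 3 in CSF1R, 2 in MET and in AXL, and once in ERBB2, and it was not found in EPHA2, MST1R or NRG2. Over the whole gene, introns included, every member holds it, with 24 occurrences in EPHA2, 7 in MST1R and 144 in NRG2. Per kilobase of gene these are 0.76, 0.41 and 0.73, where the median over the listed coding genes is 0.48. Of the members that fell, the main transcripts of NRG1, EGFR, ERBB3 and MET hold the motif and that of EPHA2 does not. Of those that rose, the main transcript of CSF1R holds it and those of MST1R and NRG2 do not. The main transcripts of AXL and ERBB2, which were not called, hold it as well. Per kilobase of transcript it is densest in CSF1R (0.79), then in ERBB3 (0.71), EGFR (0.61) and NRG1 (0.58). It is less dense in AXL (0.42), MET (0.29) and ERBB2 (0.22), and the median over the listed coding genes is 0.28. Whether the motif goes with direction was not tested. Whether PTBP1 bound any of these sites in the cells was not analysed here.

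EGFR, the receptor of EGF and related ligands, is on the plus strand of chromosome 7 (positions 55019017 to 55211628). Scaled counts reached 42820, 41740 and 34447 across siCtrl libraries, 38701, 32693 and 37555 across those of siIGFRIL, and 15615, 15823 and 16619 across those of siPTBP1. All siPTBP1 libraries lie far below all others, while siCtrl and siIGFRIL overlap. EGFR fell upon PTBP1 knockdown (log2 fold change -1.30 ± 0.086, limma adjusted p = 2.05e-07). Upon IGFRIL knockdown its log2 fold change was -0.12, with a 95% confidence interval from -0.32 to 0.07.

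ERBB2, the preferred partner of the other ERBB receptors, is on the plus strand of chromosome 17 (positions 39687914 to 39730426). The siCtrl libraries held 1765, 1831 and 1712 scaled counts, the siIGFRIL libraries 1745, 1693 and 1717, and the siPTBP1 libraries 1458, 1551 and 1438. The siPTBP1 libraries are the lowest 3, yet the difference is small. Its log2 fold change of -0.26 in siPTBP1 (standard error 0.051, limma adjusted p = 1.75e-04) did not reach the fold threshold, and it passed with scaling to the total count (-0.37), where the median of all genes is at -0.106, without siCtrl replicate 3 (-0.28) and without siPTBP1 replicate 2 (-0.29). In siIGFRIL it was -0.04 (95% confidence interval -0.15 to 0.07).

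ERBB3, the neuregulin receptor that lacks strong kinase activity, is on the plus strand of chromosome 12 (positions 56076799 to 56103505) and was scarce. Scaled counts reached 84.2, 90.1 and 66.8 across siCtrl libraries, 69.5, 87.6 and 66.1 across those of siIGFRIL, and 59.0, 59.8 and 60.9 across those of siPTBP1. The siPTBP1 values lie just under the lowest value of each other group. The fall of -0.41 (standard error 0.17, limma adjusted p = 0.0404) was called, but the call was lost without siCtrl replicate 1 (-0.37) or 2 (-0.32) and without any 1 of the siPTBP1 libraries (-0.40, -0.41 and -0.42), and after a trend on exon length and GC content was removed the value was 0.07 (adjusted p = 0.733).

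NRG1, a neuregulin that binds ERBB3 and ERBB4, was also scarce. The siCtrl libraries held 217.9, 174.7 and 120.4 scaled counts, the siIGFRIL libraries 153.8, 171.2 and 160.5, and the siPTBP1 libraries 53.2, 54.7 and 69.0. The siCtrl libraries are spread widely, with siIGFRIL inside their range and siPTBP1 below it. NRG1 fell upon PTBP1 knockdown (log2 fold change -1.49 ± 0.18, limma adjusted p = 2.99e-07), and its value in siIGFRIL was -0.04 (95% confidence interval -0.41 to 0.33).

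NRG2, a related neuregulin, is on the minus strand of chromosome 5 (positions 139846779 to 140043299) and was near the limit of detection. The siCtrl libraries held 9, 1 and 0 unscaled reads, the siIGFRIL libraries 7, 9 and 5, and the siPTBP1 libraries 24, 17 and 14. Every siPTBP1 library has more reads than every other library, and siCtrl and siIGFRIL overlap. NRG2 rose upon PTBP1 knockdown (log2 fold change 2.96 ± 0.65, limma adjusted p = 4.25e-04), a size that depends on the pseudocount, since it was 4.36 with 0.1 added to each count and 1.74 with 5 added. Upon IGFRIL knockdown it was 1.52 (adjusted p = 0.426 from limma), and 0.81 without siCtrl replicate 3, the library with no read.

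**Figure D1:**
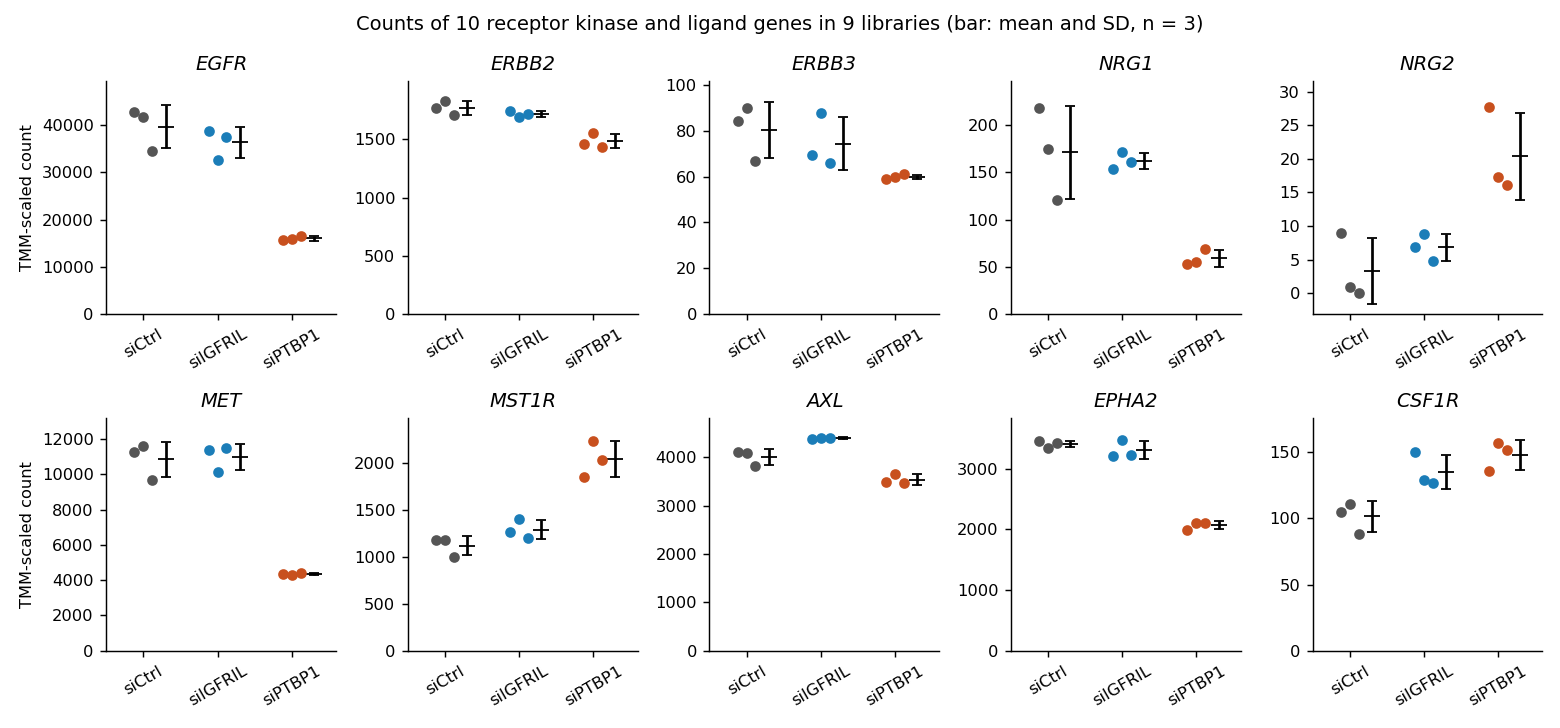
TMM-scaled counts (vertical axis of each panel) of the 10 genes in the 3 siCtrl, 3 siIGFRIL and 3 siPTBP1 libraries (points), with the mean and SD of each group (bar). In siPTBP1 EGFR sits at 15615 to 16619 against 34447 to 42820 in siCtrl, and MST1R at 1859 to 2240 against 1003 to 1183.

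MET, the receptor of hepatocyte growth factor, is on the plus strand of chromosome 7 (positions 116672196 to 116798377). The siCtrl libraries held 11237, 11578 and 9688 scaled counts, the siIGFRIL libraries 11346, 10131 and 11478, and the siPTBP1 libraries 4330, 4268 and 4421. The siPTBP1 libraries lie close together and well below the rest, and siCtrl and siIGFRIL overlap. MET fell upon PTBP1 knockdown (log2 fold change -1.32 ± 0.060, limma adjusted p = 4.2e-12), and its value in siIGFRIL was 0.02 (95% confidence interval -0.11 to 0.15). Its ligand HGF is not listed.

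MST1R, the receptor of macrophage-stimulating protein and the closest relative of MET, is on the minus strand of chromosome 3 (positions 49887002 to 49903873). Scaled counts reached 1181, 1183 and 1003 across siCtrl libraries, 1268, 1404 and 1205 across those of siIGFRIL, and 1859, 2240 and 2034 across those of siPTBP1. The 3 groups do not overlap, with siPTBP1 the highest and siCtrl the lowest. MST1R rose upon PTBP1 knockdown (log2 fold change 0.86 ± 0.078, limma adjusted p = 1.58e-08), and was 0.21 in siIGFRIL (adjusted p = 0.355 from limma).

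Relatives thus moved in opposite directions. Per kilobase of exon, MET was 7.02 ± 0.10 times MST1R in siCtrl and 6.22 ± 0.87 times in siIGFRIL (SD, n = 3). In siPTBP1 this ratio of length-scaled levels was 1.55 ± 0.16. It was at least 5.25 in each library of siCtrl and siIGFRIL and at most 1.69 in siPTBP1. The ratio of EGFR to MET did not move in this way: it was 1.66 ± 0.06 in siCtrl and 1.67 ± 0.04 in siPTBP1, while EGFR to ERBB2 went from 14.5 ± 1.4 to 7.01 ± 0.44. By the length of the main transcript the EGFR to MET ratio was 2.52 ± 0.093 in siCtrl and 2.54 ± 0.054 in siPTBP1, and MET to MST1R 6.75 ± 0.095 and 1.49 ± 0.15.

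EPHA2, a receptor of ephrin-A ligands on neighbouring cells, is on the minus strand of chromosome 1 (positions 16124337 to 16156069). The siCtrl libraries held 3457, 3347 and 3425 scaled counts, the siIGFRIL libraries 3213, 3483 and 3228, and the siPTBP1 libraries 1992, 2105 and 2105. The siPTBP1 libraries again lie below all others. EPHA2 fell upon PTBP1 knockdown (log2 fold change -0.72 ± 0.047, limma adjusted p = 4.82e-11), and was -0.04 in siIGFRIL (95% confidence interval -0.14 to 0.05).

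AXL, the receptor of GAS6, is on the plus strand of chromosome 19 (positions 41219223 to 41261766). Scaled counts reached 4112, 4093 and 3827 across siCtrl libraries, 4389, 4409 and 4410 across those of siIGFRIL, and 3493, 3665 and 3468 across those of siPTBP1. The groups do not overlap, with siIGFRIL the highest and siPTBP1 the lowest. Neither difference from siCtrl was called, at -0.18 in siPTBP1 (adjusted p = 0.00116, under the fold threshold) and 0.14 in siIGFRIL (adjusted p = 0.225 from limma). Between the knockdowns AXL was lower in siPTBP1 (log2 fold change -0.31, adjusted p = 2.54e-06 from limma).

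CSF1R, the receptor of the macrophage growth factor CSF1, is on the minus strand of chromosome 5 (positions 150053291 to 150113372). The siCtrl libraries held 105.0, 110.8 and 88.4 scaled counts, the siIGFRIL libraries 149.9, 128.9 and 126.5, and the siPTBP1 libraries 135.4, 157.1 and 151.7. Both knockdowns lie above siCtrl and overlap each other. CSF1R rose in siPTBP1 (log2 fold change 0.55 ± 0.13, limma adjusted p = 0.00113), a call lost on unscaled values (0.32, adjusted p = 0.0656), where the median of all genes is at -0.22. In siIGFRIL it was 0.41 (95% confidence interval 0.13 to 0.69, adjusted p = 0.223 from limma). Of 11 leukocyte markers only CD14 and CD68 were listed, and 9 were not, among them PTPRC, SPI1 and CSF3R. Only CD68 reached 1 CPM in siCtrl (3.56 to 4.20 CPM), with CD14 at 0.386 to 0.421 CPM. The summed level of these 2 genes was 3.96 to 4.59 CPM in siCtrl, 4.98 to 5.04 in siIGFRIL and 6.45 to 7.15 in siPTBP1, most of it CD68. This sum was higher in both knockdowns, as the CSF1R counts were, although CSF1R was called only in siPTBP1. The part of this sum in the result was not tested.

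In all, 8 of the 10 members were called in siPTBP1 against siCtrl, 3 higher and 5 lower, where 66% of all genes were called (32.2% higher and 33.8% lower). The count is close to this background. The scaled counts of siPTBP1 and siCtrl did not overlap for any of the 10, as for 75.9% of all genes. In siIGFRIL against siCtrl 0 of 10 were called by limma, and 0 with limma voom, where 0.462% of all genes were called, and 4 were higher at an unadjusted p under 0.05, as were 5.51% of all genes (CSF1R, AXL, MST1R and NRG2, named after their values were seen). With the fold threshold added to the unadjusted p, 2 remained (CSF1R and NRG2), against 3.4% of all genes. Groups did not overlap for 3 members in siIGFRIL (MST1R, CSF1R and AXL), as for 15.3% of all genes. The smallest p that an exact permutation test of 3 against 3 libraries could give for 1 gene is 0.1.

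Set against siIGFRIL in place of siCtrl, siPTBP1 had 6 of 10 members called, 1 higher and 5 lower, where 64.6% of all genes were called (31.5% higher and 33.1% lower). MST1R was higher (log2 fold change 0.66), and NRG1 (-1.45), MET (-1.34), EGFR (-1.18), EPHA2 (-0.68) and AXL (-0.31) were lower. This is the direct test of whether the knockdowns differ, and these 6 genes did. For CSF1R the difference was 0.13 (95% confidence interval -0.15 to 0.41), for NRG2 1.45 (0.09 to 2.80, adjusted p = 0.0525 from limma), and for ERBB3 -0.30 (-0.66 to 0.06). ERBB2, at -0.21, was under the fold threshold.

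**Figure D2:**
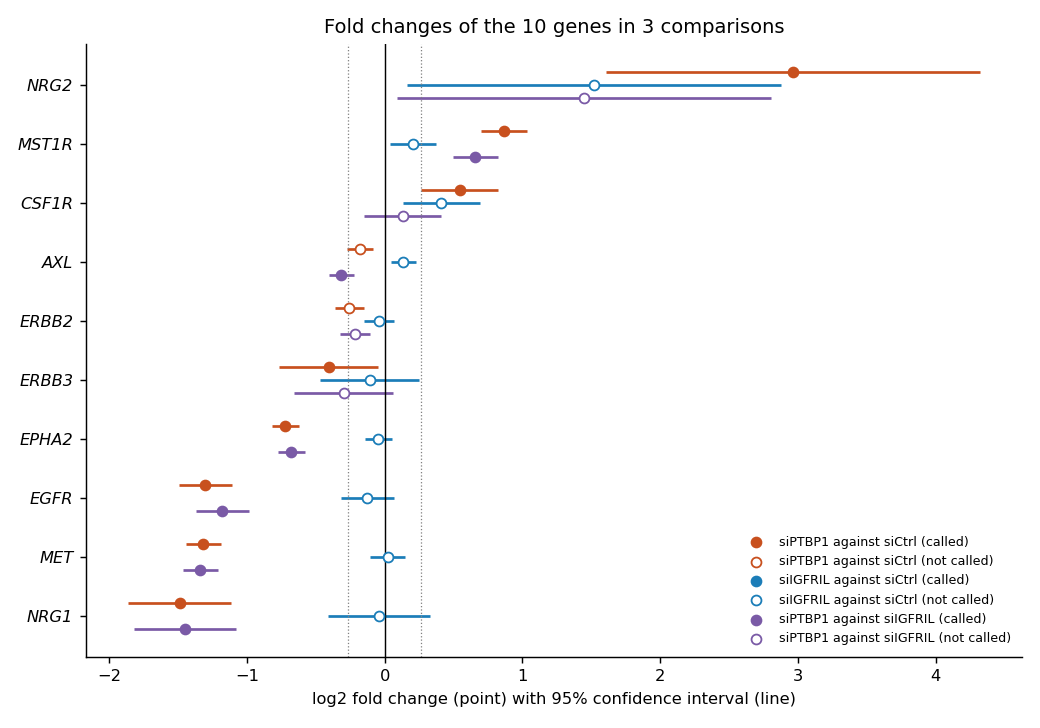
Log2 fold change (horizontal axis, point) with its 95% confidence interval (line) of the 10 genes in 3 comparisons, filled where called, with dotted lines at the fold threshold of 1.2. In siPTBP1 against siCtrl MET sits at -1.32 and MST1R at 0.86, and in siIGFRIL against siCtrl all points are open.

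Levels of different receptors can be compared only per length, here as CPM per kilobase of the union of annotated exons. In siCtrl the order was EGFR (96.9 ± 11.1, SD, n = 3), MET (58.4 ± 5.4), EPHA2 (32.1 ± 0.53), AXL (30.4 ± 1.2), MST1R (8.32 ± 0.76), ERBB2 (6.68 ± 0.23), CSF1R (0.767 ± 0.088), NRG1 (0.312 ± 0.089), ERBB3 (0.267 ± 0.040) and NRG2 (0.0277 ± 0.042). Neighbours in this order did not overlap between libraries except NRG1 and ERBB3. In siPTBP1 the order became EGFR (39.1 ± 1.3), AXL (26.9 ± 0.81), MET (23.4 ± 0.41), EPHA2 (19.4 ± 0.62) and MST1R (15.2 ± 1.4), followed by ERBB2 (5.59 ± 0.23) and CSF1R (1.12 ± 0.086). At the low end came ERBB3 (0.199 ± 0.0032), NRG2 (0.172 ± 0.055), which overlapped it, and NRG1 (0.107 ± 0.016). AXL thus stood above MET in siPTBP1, and NRG2 above NRG1. In siIGFRIL the first 4 were EGFR (88.7), MET (59.2), AXL (33.4) and EPHA2 (31.1). The order depends on the length used. Per kilobase of the annotated main transcript, a length chosen after seeing the data, ERBB2 (15.1 ± 0.51) stood above MST1R (9.16 ± 0.84) in siCtrl, and EPHA2 (33.04 to 34.1) and AXL (31.6 to 33.95) overlapped. On that scale AXL (29.2 ± 0.89) was still above MET (24.8 ± 0.44) in siPTBP1, while NRG2 (0.160 to 0.276) and NRG1 (0.173 to 0.224) overlapped.

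Summed over the 8 receptors, the length-scaled level was 233.9 ± 18.6 CPM per kilobase in siCtrl, 229.8 ± 9.6 in siIGFRIL and 130.9 ± 3.2 in siPTBP1 (SD, n = 3). The siPTBP1 libraries reached at most 133.1 and the siCtrl libraries at least 212.4. EGFR held 41.4% ± 1.6 of this sum in siCtrl and 29.9% ± 0.82 in siPTBP1, and MET 25.0% ± 0.56 and 17.9% ± 0.54. AXL held 13.0% ± 0.54 in siCtrl and 20.5% ± 0.57 in siPTBP1, and MST1R 3.56% ± 0.049 and 11.6% ± 0.84. For these 4 receptors the shares in siCtrl and siPTBP1 did not overlap. EPHA2 held 13.8% ± 1.2 and 14.9% ± 0.12, which overlapped, although its level fell. The share of AXL was higher in siPTBP1 although its level was lower, since a share also depends on the other receptors. By the length of the main transcript EGFR held 50.15% ± 1.6 in siCtrl and 37.3% ± 0.95 in siPTBP1, and the shares of EGFR, MET, AXL and MST1R in the 2 groups again did not overlap.

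**Figure D3:**
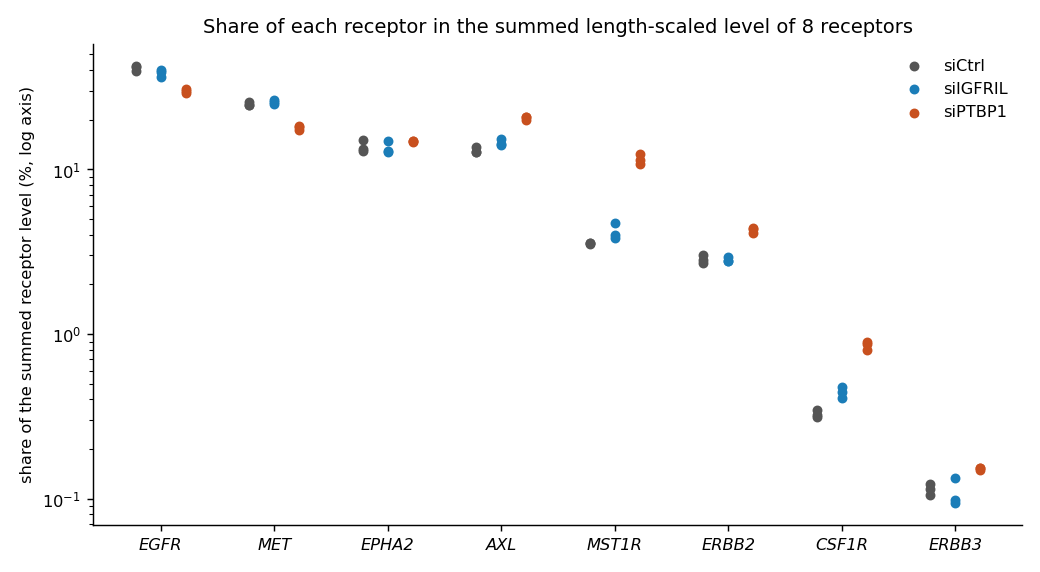
Share of each receptor (horizontal axis) in the summed length-scaled level of the 8 receptors (vertical axis, percent, log axis), 1 point per library and colours for the 3 groups. MST1R goes from 3.50 to 3.60% in siCtrl to 10.8 to 12.5% in siPTBP1, while EGFR goes from 39.6 to 42.6% to 29.0 to 30.7%.

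Fold changes in siPTBP1 ran with exon length over all genes. The median log2 fold change was 0.68 among the 1387 genes with the shortest exons and -0.62 among the 1388 with the longest. EGFR (15941 exon bases) and NRG1 (21372) are in the longest group, whose middle quartiles span -1.09 to -0.06, and both lie below it. MET (7224 bases) lies below the quartiles of its own group (-0.75 to 0.22), and EPHA2 (4141 bases) lies below those of a group whose median is 0.14. MST1R (5252 bases) lies above its group's quartiles (-0.60 to 0.44), and so does CSF1R (5151 bases). ERBB2 and ERBB3 lie within those of theirs (-0.97 to 0.003).

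With the trend on exon length and GC content removed, 7 of the 10 were called, 3 higher and 4 lower, against 27.8% and 29.3% of the 13873 annotated genes. EGFR was then at -0.61 and NRG1 at -0.53, against -1.30 and -1.49 before. MET was at -0.83 and MST1R at 0.55, while EPHA2 was at -1.21 and became the largest fall of the 10. CSF1R (0.32) and NRG2 (2.50) were still called, and ERBB3 was not. The part of exon length in each change was not tested.

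**Figure D4:**
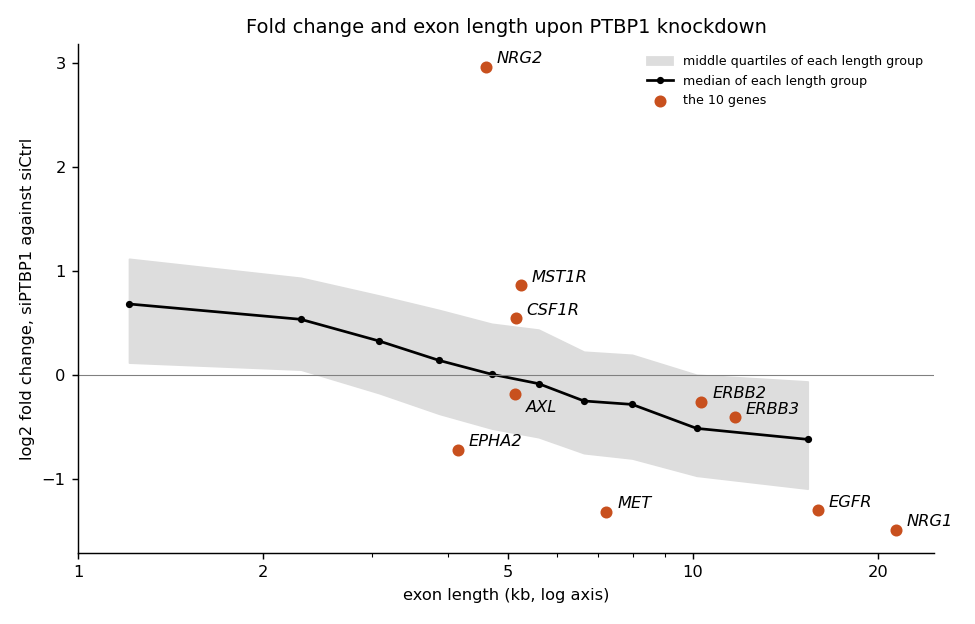
Log2 fold change in siPTBP1 against siCtrl (vertical axis) by exon length (horizontal axis, kb, log axis), with the median and middle quartiles of 10 groups of genes by length (line and band) and the 10 genes (points). The medians run from 0.68 to -0.62, with MET at -1.32 below the band and MST1R at 0.86 above it.

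Beyond the members, 50 other receptor tyrosine kinases were looked up and 21 were listed. Upon PTBP1 knockdown 7 rose and 9 fell, where 32.2% of all genes were called higher and 33.8% lower. The 21 log2 fold changes had a median of -0.002 beside 0.004 over all genes. With the length and GC trend removed 7 rose and 5 fell, beside 27.8% and 29.3% of all annotated genes. The 3 with the smallest p all fell: IGF1R, the receptor of insulin-like growth factors (-0.91, adjusted p = 1.77e-11 from limma), LMTK2, a membrane-anchored kinase (-1.57), and FGFR3, a fibroblast growth factor receptor (-0.81). Over 22 other processing settings IGF1R stayed called, at -1.14 to -0.39. In siIGFRIL none of the 21 was called by limma and 2 had an unadjusted p under 0.05, which 9.92% of all genes had in either direction. The smallest p was that of LMTK2 (-0.28, adjusted p = 0.206), which was called without siCtrl replicate 3 (-0.38, adjusted p = 0.0189). IGF1R was at -0.02 in siIGFRIL (adjusted p = 0.955 from limma).

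Of 20 other ligands of these receptors 13 were listed, and the missing ones include HGF, the CSF1R ligand IL34, and the EGFR ligands TGFA, AREG, EREG and BTC. In siPTBP1 4 rose and 4 fell, with a median of -0.08, where 32.2% of all genes were higher and 33.8% lower. Calls thus made up 61.5% of the 13, close to the 66% of all genes. The 3 with the smallest p were ephrin-A genes, whose products bind EPHA2: EFNA3 rose (2.17), as did EFNA1 (0.95) and EFNA4 (1.35). They were higher while EPHA2 itself was lower. Exons of EFNA3 and EFNA4 overlap those of a readthrough gene over 43.9% and 15.0% of their length, so reads could be counted for either. With the length and GC trend removed EFNA1 was at 0.27 and EFNA4 at 0.32. In siIGFRIL none was called by limma and 2 of 13 had an unadjusted p under 0.05 (9.92% of all genes), with EFNA3 at 0.37 (adjusted p = 0.0826), called without siCtrl replicate 3 (0.42, adjusted p = 0.0422).

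Growth factors are released or matured by proteases, of which, with their inhibitors, 10 of 13 were listed. In siPTBP1 3 rose and 2 fell, so 50% were called, where 66% of all genes were (32.2% higher and 33.8% lower). ADAM17, which sheds several EGFR ligands, fell (-1.92, with 11.7% of its exon bases shared with other genes) and ADAM10, which sheds others, fell (-1.04), while ST14, the protease matriptase that activates the precursors of hepatocyte growth factor and macrophage-stimulating protein, rose (1.49). Also higher were the protease inhibitors SPINT2 (1.34) and SPINT1 (1.30), named after their values were seen. Both were scarce, at 14.8 and 3.47 scaled counts in siCtrl. The ADAM10 call was lost with the length and GC trend removed (-0.08, adjusted p = 0.133). In siIGFRIL none was called by limma and 1 of 10 had an unadjusted p under 0.05 (9.92% of all genes), RHBDF1 at -0.25 (adjusted p = 0.186), which encodes a cofactor of ADAM17.

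Of 18 listed adaptors and proximal effectors, proteins that dock on or act next to the activated receptors, 15 fell and 0 rose in siPTBP1 (median -0.77), where 33.8% of all genes were lower and 32.2% higher. The 3 with the smallest p were PTPN11, the phosphatase SHP2 that is needed for full ERK activation (-1.84), RASA1, a RAS GTPase-activating protein (-1.58, with 14.7% of its exon bases shared with another gene), and GAB2, a docking protein (-1.62). GRB2, the adaptor that links receptors to SOS, was at 0.11 in siPTBP1 and at 0.10 in siIGFRIL (adjusted p = 0.361), where it had the smallest p of the list, none of which was called by limma (4 of 18 at an unadjusted p under 0.05, against 9.92% of all genes). With the length and GC trend removed 10 fell and 1 rose, where 29.3% of all annotated genes were lower and 27.8% higher, and the median was -0.48 beside -0.014. The exons of this list have a median length of 6862 bases, against 5138 over all annotated genes.

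Of 21 listed negative regulators of the receptors, 18 fell, 1 rose and 2 were not called in siPTBP1, with a median of -0.98 and beside the same 33.8% and 32.2% of all genes. The 3 with the smallest p were SOCS4, a suppressor of cytokine signalling that acts on EGFR (-1.40), PTPN12, a tyrosine phosphatase (-1.07), and UBASH3B, which binds the ubiquitin ligase CBL (-1.39). The 1 that rose was SPRY1, an inhibitor of RAS-ERK signalling (1.36), named after its value was seen. With the trend removed 14 fell and 3 rose, beside 29.3% and 27.8% of all annotated genes, with a median of -0.59 and a median exon length of 7044 bases. In siIGFRIL none was called by limma and 4 of 21 had an unadjusted p under 0.05 (9.92% of all genes), PTPRJ with the smallest p (0.23, adjusted p = 0.129).

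Genes whose transcription follows ERK activity were mixed. Of 11 listed, 6 fell and 3 rose in siPTBP1, with a median of -0.82, where 33.8% of all genes were lower and 32.2% higher. The 3 with the smallest p were CCND1, the cyclin of early G1 (-0.89), DUSP4, a phosphatase that inactivates ERK (-1.79), and ETV5, a transcription factor (-1.11). The 3 that rose, named after their values were seen, were the transcription factors EGR1 (1.04), ETV4 (0.66) and FOSL1 (0.64). With the trend removed 7 fell and 1 rose, beside 29.3% and 27.8% of all annotated genes, so at most 1 of these 3 was still called higher. CCND1 was the only gene of the 6 lists called in siIGFRIL, where it fell (-0.38, adjusted p = 1.31e-04 from limma), with 10.4% of its exon bases shared with another gene.

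**Figure D5:**
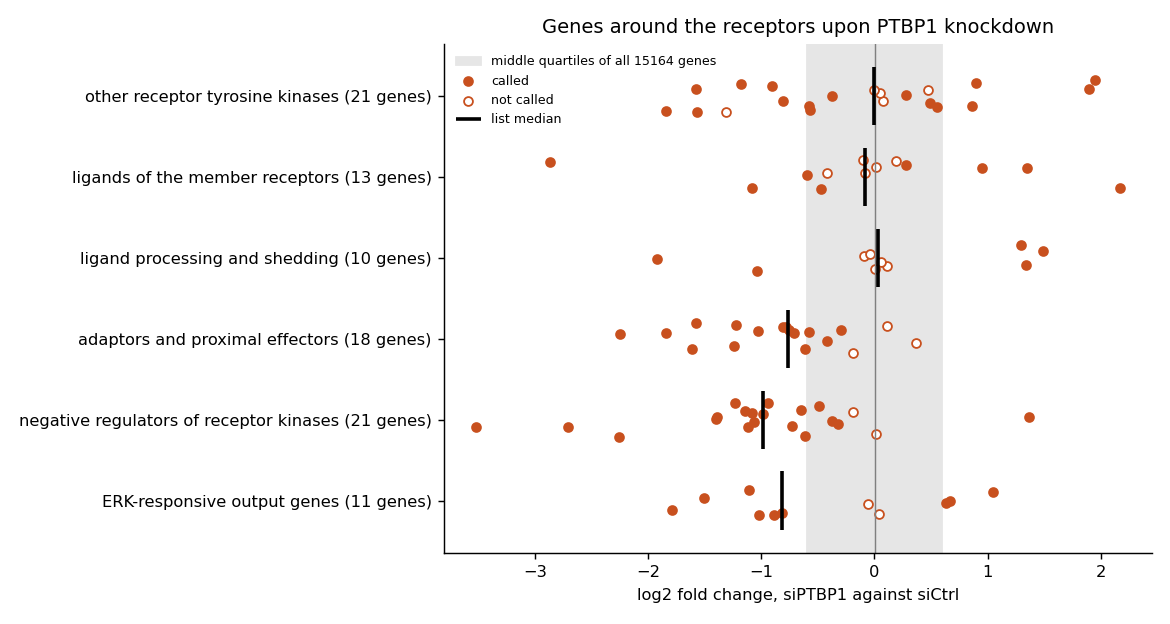
Log2 fold change in siPTBP1 against siCtrl (horizontal axis) of the listed genes of 6 groups around the receptors (vertical axis), filled where called, with the median of each group (bar) and the middle quartiles of all 15164 genes (grey band). The medians of adaptors (-0.77), negative regulators (-0.98) and ERK-responsive genes (-0.82) lie left of the band, and those of other receptors (-0.002), ligands (-0.08) and processing enzymes (0.03) lie within it.

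For each member called in a comparison, the genes with the most similar pattern were sought by the Euclidean distance between log2 differences from the siCtrl mean over the 9 libraries, among up to 12355 genes that averaged 1 CPM or more. The nearest to MET were AGO1 (distance 0.0871) and MYO10 (0.114), and those nearest to EGFR were ZBTB40 (0.0774) and TRIP12 (0.0926). EPHA2 was nearest to CDAN1 (0.101) and GNAI1 (0.108), and AXL to MTSS2 (0.104) and UBE2O (0.107). MST1R was nearest to P4HA2 (0.193) and CCNG2 (0.221), and CSF1R to SLC52A2 and TGFBI (both 0.318). The scarce genes had looser matches, SKIDA1 (0.258) and LIMK2 (0.28) for ERBB3, PPARGC1B (0.452) and MAST4 (0.458) for NRG1, and GAL3ST1 (2.33) and ITGB2 (2.47) for NRG2. These distances describe the same 9 libraries that gave the fold changes, and no other member was among the nearest genes of a member.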

How the data were processed

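RNA of HepG2 cells in 3 groups (siCtrl, siIGFRIL, siPTBP1) was sequenced in 9 libraries, grouped by the sample labels. The headers of the siIGFRIL columns hold part of an earlier name of IGFRIL, which the study's text gives, and were matched to the siIGFRIL libraries through it. Per the methods and the submitters' processing notes, the authors used Trim Galore 0.6.7 for trimming, Bowtie2 2.2.5 for alignment to GRCh38 and RSEM 1.2.8 for gene counts. The deposited values are log2 values of 15164 genes that behave as log2(count + 1) to 2 decimals, with no scaling for depth. The gene filter and strandedness were not given in the sources used here, nor how the log2 values were made. Rounding can move a returned count by 0.347%.

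Counts were returned, scaled by TMM (own code, trims 0.3 and 0.05) and tested as log2(scaled count + 1) with limma 3.58.1 (trend, robust; statmod 1.5.0, R 4.3.3), all 9 libraries in one fit. The fold change of low genes is understated on this scale. A count of at least 1 in 3 libraries was required, which removed 0 genes. Calls needed an adjusted p (Benjamini-Hochberg, over all genes) under 0.05 with a fold change over 1.2. Count models were not run, since the deposited unit is log2. Total counts were 23426747 to 27942736, and the number of libraries limits the precision.

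The members, lists and tests were chosen with earlier results of these data known. Named genes were all members, up to 3 per list with the smallest p in siPTBP1 and 1 in siIGFRIL, and the 2 nearest patterns per called member; others are marked as named after their values were seen. Exon length, GC content and coordinates came from GENCODE annotation of GRCh38 for 13873 genes (91.5%), promoters from RefSeq GRCh38.p14. The length and GC trend was a lowess with a span of 0.4. The fit was also run on simulated counts, with the same dispersion set for every gene and few genes changed. That run does not show how the fit does where most genes are called, as in siPTBP1, or where dispersion differs between genes. Alternatives were other scalings, pseudocounts of 0.1 and 5, voom, no robust estimation, a filter of 1 CPM, a fit of the 6 libraries compared, a replicate block, the trend removed, block and trend together, other thresholds and leaving out each library. Main transcript length for the length-scaled levels was added after seeing the data. Tables and figures used Python 3.11.15, numpy 2.4.6, pandas 2.3.3 and matplotlib 3.10.9.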

Additional observations from a re-analysis of the deposited data

How the results depend on the processing

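In siPTBP1 the calls of MET, MST1R, EPHA2, EGFR, NRG1 and NRG2 were kept under all alternatives run (22 each, 21 for NRG2). The ERBB3 call was kept in 12 of 22, and with the length and GC trend removed its value was 0.070, with or without the replicate block; it was also lost at an adjusted p under 0.01, with voom and with the 6 libraries compared. AXL and ERBB2 were called with total count scaling, with no scaling and on the adjusted p alone. Between the knockdowns, with the trend removed, ERBB3 was at 0.149 and CSF1R at -0.079, again with or without the block, and CSF1R was at -0.055 with no scaling. The causes were not tested. Of all genes called in siPTBP1, 4888 were higher and 5124 lower, and with no scaling 3557 and 6536.

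In siIGFRIL the small value of MET (0.02) was -0.0026 with quantile normalization, -0.017 with no scaling, and -0.056 to 0.0805 with 1 library left out, below 0 without siCtrl replicate 3, siIGFRIL replicate 1 or siIGFRIL replicate 3. NRG1 was at 0.025 with the trend removed, with or without the block, and -0.270 to 0.155 with 1 library left out, above 0 without siCtrl replicate 1. With 1 library left out, 36 to 146 genes were called in place of 70: 36, 46 and 146 without siCtrl replicates 1, 2 and 3, and 44 without siIGFRIL replicate 1. Other receptor kinases called ran from 0 to 1 of 21, ligands from 0 to 1 of 13 and ERK-responsive genes from 1 to 2 of 11, the higher counts without siCtrl replicate 3. With the trend removed 1 of 13 ligands was called, EFNA3, where 0.432% of all annotated genes were called higher. EFNA3 was also the 1 ligand called with the block added. At an adjusted p under 0.01, 27 genes were called. At an unadjusted p under 0.05 with the fold threshold 515 were, which is 3.4% of all genes. Among them were 2 of 10 members (CSF1R and NRG2), 1 of 21 other receptor kinases and 1 of 13 ligands. There were also 3 of 21 negative regulators and 2 of 11 ERK-responsive genes.

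Libraries with the same replicate number did not deviate together more than others did. Their correlations ran from -0.128 to 0.13 over 9 pairs, against -0.176 to 0.254 over 18 pairs with different numbers. The deviations were taken from the group means of few libraries, so this cannot settle whether the numbers pair the libraries. With the replicate number as a block 8 members were called in siPTBP1 and 0 in siIGFRIL, as without it, and 7 in place of 6 between the knockdowns, NRG2 being added (adjusted p = 0.0339 from limma); no other call of a member or named gene changed. Depth limits NRG2, with 0 to 9 reads in siCtrl.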
